A study of Mus musculus with 21 samples.

Results

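Erythroid precursors that carry Ter119 and CD71 but not CD45 were compared between the spleens of tumor-bearing mice and the spleens of neonatal mice. All libraries of that sort in these states were taken, 3 from tumor-bearing mice and 3 from neonates, that is 6 of the 21 libraries of the series, and every gene of the table was read. Ter119 is a surface antigen of the red cell lineage, CD71 is the transferrin receptor encoded by Tfrc, and CD45 is the leukocyte phosphatase encoded by Ptprc that erythroid cells lose as they mature. The series also holds CD45- cells of the same sort from mice with anemia (3 libraries), CD45+ cells of this sort from all 3 states (9 libraries) and CD11b+Gr1+ myeloid cells of tumor-bearing mice (3 libraries); the myeloid libraries entered no comparison here. All mice were C57BL/6. The labels give neither the tumor, the means by which anemia was induced, the age or sex of the mice, nor whether replicates are separate animals, so p-values measure the spread between libraries, which may be technical. Tumor state and neonatal age differ together between the groups and cannot be told apart.

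The spleen is a site of red cell production in newborn mice, taking over from the fetal liver before the bone marrow dominates, and it becomes one again in adult mice under stress such as blood loss or cancer. Erythropoietin (EPO) drives this through its receptor, the kinase JAK2 and the transcription factor STAT5, which switches on both effector genes and its own inhibitors. Fetal and newborn red cell precursors differ from adult ones in a programme held by LIN28B and the IGF2BP RNA-binding proteins. In mice, red cells carry the glucose transporter GLUT1 in fetal and newborn life and lose it as adults.

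The deposited values were log2 expression of an unnamed scale, and are given below out of the log, as "values"; a blank cell was taken as 0 and is called "listed at 0". Values summed to between 255966 and 349261 over the 6 libraries, and 12294 to 13130 genes had a value. Read depth is not known. Erythroid markers were high in every library: Slc4a1, the anion exchanger of the red cell membrane, was at 3559, 3191 and 2097 in tumor libraries and 2349.9, 2389.8 and 2354 in neonatal libraries, and Alas2, the first enzyme of haem synthesis, at 1872, 1409.5 and 1389.7 in tumor libraries and 1286, 1074 and 1921 in neonatal libraries. Ptprc was at 1.23, 1.35 and 2.96 in tumor and 1.88, 1.72 and 3.22 in neonatal CD45- libraries, against 86.7 to 386 in the CD45+ libraries of these states. These levels matched the sort labels in all 6 libraries. The third tumor and the third neonatal library had the lowest share of summed values in adult globins within their groups, 20.8% and 27.5%. Correlations of log2 values across genes, which share depth and processing and are not independent, were 0.935 to 0.970 among tumor libraries, 0.923 to 0.965 among neonatal libraries and 0.912 to 0.937 between the groups.

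A gene was tested if its value reached 1 in 3 or more of the 18 Ter119+CD71+ libraries. Of the 11195 tested genes, 284 (2.54%) differed between tumor and neonatal CD45- cells at an adjusted p below 0.05 (limma's moderated test, two-sided, Benjamini-Hochberg over all tested genes). Tumor cells were higher for 45 genes (0.402%) and lower for 239 (2.13%). The median log2 fold change of all tested genes was -0.07, on the log2(value + 1) scale that understates changes of low genes. Of the 239 genes lower in tumor cells, 122 passed the filter on low values only through neonatal libraries, CD45- or CD45+. So did 502 of all 11195 tested genes. The filter thus favoured low tumor values for these 122 genes, and their p-values describe them and no more. Of the 239, 16 were listed at 0 in all 3 tumor libraries. The balance of directions depended on scaling and on single libraries: with quantile normalization 101 genes were higher and 248 lower, which moved the higher share of calls to 28.9%, against 15.8% without scaling. Leaving out the second tumor library left 14 higher and 141 lower genes, leaving out the first neonatal library 17 and 141, leaving out the second neonatal library 18 and 221, and leaving out the third neonatal library gave 102 and 186. Leaving out the first tumor library gave 52 higher and 159 lower genes.

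**Figure D1:**
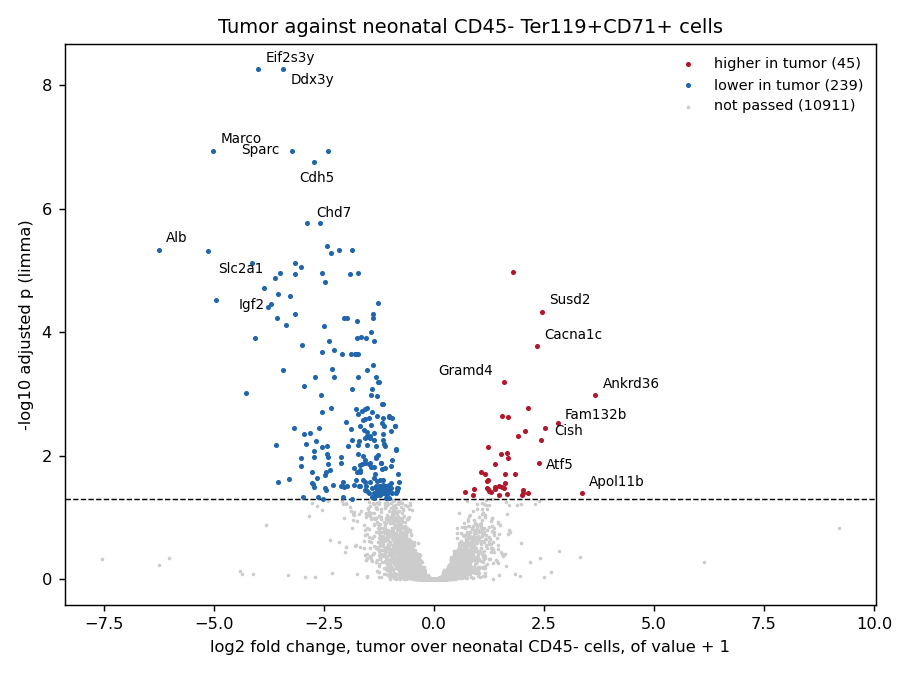
Log2 fold change of tumor over neonatal CD45- cells (x axis, of value + 1) against -log10 adjusted p from limma (y axis) for the 11195 tested genes, with the threshold of 0.05 as a dashed line. The 239 genes lower in tumor cells reach further on both axes than the 45 higher ones, with liver, macrophage and Y-linked genes at the far left and top.

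Fam132b and Cish, known targets of EPO and STAT5, were among the genes that rose. Of 26 tested members of a list of EPO, STAT5 and stress erythropoiesis genes, 2 rose, 1 fell and 23 did not pass. Over all tested genes, 0.402% rose and 2.13% fell. The median log2 fold change was -0.08 beside -0.07 over all tested genes. An unadjusted p below 0.05 (limma) was reached by 4 members in the higher and 3 in the lower direction. Libraries did not overlap for 4 members in the higher and 7 in the lower direction, beside 4.08% and 14.8% of all tested genes. Epor, the receptor gene, was at 44.5, 46.5 and 29.3 in tumor libraries and 48.8, 64.7 and 54.2 in neonatal libraries and did not pass (adjusted p = 0.898). Jak2, its kinase, did not pass either, at 34.7, 20.7 and 25.1 in tumor libraries and 40.7, 67.3 and 50.4 in neonatal libraries (adjusted p = 0.0955). For Epor and for Jak2, every tumor library stood below every neonatal library. The 2 that rose were a secreted hormone and a feedback inhibitor.

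Fam132b encodes erythroferrone, the hormone that erythroblasts release under EPO to lower hepcidin in the liver and free iron for haem. It was at 19.8, 76.2 and 53.6 in tumor libraries and 7.29, 3.38 and 6.05 in neonatal libraries. Every tumor library stood above every neonatal library, and the log2 fold change was 2.81 ± 0.49 (SE, n = 3 each, limma adjusted p = 0.0029). Its call held in all 18 alternative analyses that were run. Anemia CD45- libraries, at 8.07, 12.9 and 20.6, lay above all neonatal libraries and overlapped the lowest tumor library.

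Cish encodes an SH2 protein that STAT5 induces and that in turn limits STAT5 signalling. Cish was at 6.996, 29.8 and 21.6 in tumor libraries and 4.15, 0.967 and 1.89 in neonatal libraries, a log2 fold change of 2.52 ± 0.45 (SE, adjusted p = 0.00351). The groups did not overlap, though the first tumor library lay nearer to the neonatal ones than to the other tumor libraries. Anemia libraries were at 9.41, 8.53 and 6.14. Trib3, a pseudokinase gene known as a target of the stress factor ATF4, was at 8.03, 29.6 and 24.9 in tumor libraries and 1.38, 1.75 and 8.17 in neonatal libraries. That difference missed the threshold (log2 2.30 ± 0.62, adjusted p = 0.0593), the first tumor library lying below the third neonatal one; without the first tumor library the adjusted p was 0.0275, and without the third neonatal library 0.0184. Trib3 also passed with median-ratio factors (adjusted p = 0.0131), quantile normalization (0.0293), haemoglobin genes left out of the sums (0.0441) and no filter (0.0495). Yet Trib3 stayed uncalled in 11 of the 18 alternatives. Its adjusted p was 0.299 without tumor replicate 2, 0.180 without tumor replicate 3, 0.289 without neonatal replicate 1 and 0.207 without neonatal replicate 2. In fits of the 6 libraries alone and of the 9 CD45- libraries it was 0.115 and 0.146. The member that fell, Tnfrsf1a, a receptor of tumor necrosis factor, was at 0.379, 0.414 and 0.364 in tumor libraries and 3.10, 1.44 and 2.81 in neonatal libraries (log2 -1.28 ± 0.32, adjusted p = 0.0397). The adjusted p of Tnfrsf1a was 0.105 without the first tumor library, 0.139 without the second and 0.0996 without the third, 0.192 without the first neonatal library and 0.105 without the third.

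The promoter of Cish is shown because it holds STAT-type letters beside a gene that rose, and that of Trib3 because it holds the letters of the element read by C/EBP and ATF factors. Both windows run from 250 bases before to 50 bases after the start of the gene (RefSeq, GRCm38.p6, 5′ to 3′ along the gene). Capitals mark matches, searched on both strands, to TTCNNNGAA in Cish (chr9:107296409-107296708, plus strand) and to TGATGNAA in Trib3 (chr2:152344011-152344310, minus strand), where the match lies on the opposite strand.
Cish: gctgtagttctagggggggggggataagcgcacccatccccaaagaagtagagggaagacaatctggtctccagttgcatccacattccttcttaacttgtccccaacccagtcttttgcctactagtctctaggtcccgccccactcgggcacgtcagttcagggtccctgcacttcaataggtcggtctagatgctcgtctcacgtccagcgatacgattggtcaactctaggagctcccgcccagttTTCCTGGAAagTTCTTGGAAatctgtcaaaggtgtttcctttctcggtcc
Trib3: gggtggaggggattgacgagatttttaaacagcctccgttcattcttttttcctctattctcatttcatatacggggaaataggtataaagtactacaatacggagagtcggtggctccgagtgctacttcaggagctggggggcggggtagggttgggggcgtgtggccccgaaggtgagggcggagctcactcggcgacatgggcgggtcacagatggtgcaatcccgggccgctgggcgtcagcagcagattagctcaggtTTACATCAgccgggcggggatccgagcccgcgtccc
Cish held 2 such matches, and 9.55% of the 27025 genes with a promoter in the table held at least 1. Of the 21 EPO and STAT5 list genes with a promoter, 3 held one. TGATGNAA was found in 4.51% of all genes and in 6 of 24 integrated stress response genes with a promoter, though in none of the 4 that rose. A match describes letters in this window and says nothing of what binds there.

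Some genes of the integrated stress response rose. This pathway slows protein synthesis through phosphorylation of eIF2α, in erythroid cells chiefly by the haem-sensing kinase HRI, and lets ATF4 raise genes of amino acid supply and stress. Of 25 tested members, 4 rose (Atf5, Ddit3, Mthfd2 and Slc3a2), beside 0.402% of all tested genes, none fell and 21 did not pass. An unadjusted p below 0.05 (limma) was reached by 7 members, all in the higher direction, and by 1286 of all 11195 tested genes. The median log2 fold change was 0.28 beside -0.07 over all tested genes. The count rested on several libraries: it was 0 without the second tumor library, 0 without the third tumor library, 0 without the second neonatal library and 1 without the first neonatal library. It was 1 in a fit of the 6 libraries alone.

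Atf5, a transcription factor made when eIF2α is phosphorylated, was at 11.8, 45.5 and 63.7 in tumor libraries and 6.38, 4.03 and 6.42 in neonatal libraries (log2 2.38 ± 0.50, adjusted p = 0.0132). Ddit3, which encodes the stress factor CHOP, was at 30.1, 43.4 and 52.8 in tumor libraries and 7.20, 6.63 and 25.2 in neonatal libraries (log2 1.83 ± 0.41, adjusted p = 0.0200). In both genes every tumor library stood above every neonatal one. Mthfd2, a mitochondrial folate enzyme, was at 17.5, 34.5 and 52.4 in tumor libraries and 10.8, 6.93 and 16.2 in neonatal libraries (log2 1.48 ± 0.35, adjusted p = 0.0304). Slc3a2, the heavy chain of several amino acid transporters, was at 96.2, 141 and 123 in tumor libraries and 36.6, 42.6 and 84.2 in neonatal libraries (log2 1.205 ± 0.29, adjusted p = 0.0330). The third neonatal library was the highest of its group for all 4 genes. Without the second tumor library the adjusted p was 0.0929 for Atf5, 0.0933 for Ddit3, 0.139 for Mthfd2 and 0.189 for Slc3a2. Without the third tumor library it was 0.0758, 0.0857, 0.139 and 0.0904 in the same order. Without the second neonatal library it was 0.0624, 0.112, 0.159 and 0.147, and without the first it was 0.129 for Ddit3, 0.104 for Mthfd2 and 0.203 for Slc3a2.

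Other members of the pathway did not pass. Atf4 itself was at 86.5, 139 and 44.3 in tumor libraries and 24.6, 56.8 and 87.9 in neonatal libraries (adjusted p = 0.588). Asns, the asparagine synthetase that ATF4 controls, was at 29.8, 63.3 and 67.8 in tumor libraries and 50.1, 38.7 and 63.0 in neonatal libraries. The groups overlapped for both.

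**Figure D2:**
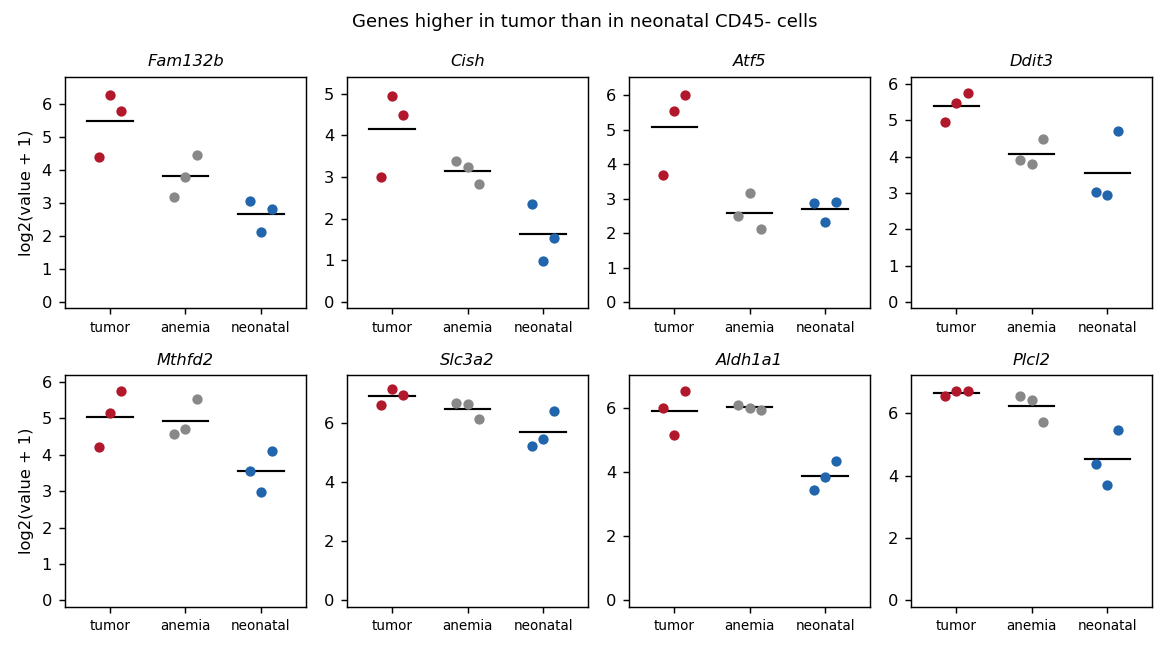
Values per CD45- library as log2(value + 1) for 8 genes that were higher in tumor than in neonatal cells, with tumor, anemia and neonatal libraries from left to right (3 points each, bars are means). All tumor points lie above all neonatal points in each panel; the anemia points lie near the neonatal ones for Atf5 and near the tumor ones for Aldh1a1 and Plcl2.

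The gene with the largest rise by the naming rule was Ankrd36, which encodes an ankyrin repeat protein, at 51.0, 77.9 and 31.2 in tumor libraries and 2.94, 1.66 and 5.16 in neonatal libraries (log2 3.67 ± 0.58, adjusted p = 0.00105). Apol11b, an apolipoprotein L gene, was at 34.5, 66.1 and 183 in tumor libraries and 3.26, 5.77 and 12.9 in neonatal libraries (log2 3.36 ± 0.84, adjusted p = 0.0401). Ankrd36 was low in anemia cells (1.69, 2.18 and 10.3) while Apol11b was high there (194, 216 and 138). Apol11b has close relatives that the counting could mix, and its adjusted p was 0.123 without the second tumor library, 0.169 without the third, 0.188 without the first neonatal library and 0.118 without the second.

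Plcl2, a phospholipase C relative that lacks the enzyme activity, was at 92.6, 104 and 104 in tumor libraries and 19.9, 12.1 and 43.4 in neonatal libraries (log2 2.14 ± 0.35, adjusted p = 0.00166). Aldh1a1, a retinal dehydrogenase listed with red cell enzymes, was at 62.3, 34.3 and 90.0 in tumor libraries and 9.71, 13.4 and 19.1 in neonatal libraries (log2 2.01 ± 0.50, adjusted p = 0.0365). Aldh1a1 was the only 1 of 26 tested red cell enzyme genes that passed, and its adjusted p was 0.112 without the first tumor library, 0.152 without the third, 0.185 without the first neonatal library and 0.104 without the second. Tnfrsf13c, the BAFF receptor known from B cells, was at 9.46, 20.4 and 7.03 in tumor libraries and 2.32, 0.872 and 0.887 in neonatal libraries (log2 2.42 ± 0.46, adjusted p = 0.00559; without the second tumor library it lay just above the threshold). B cell genes as a list did not move with it: none of 17 tested passed (none at an unadjusted p below 0.05), and their summed values were 13.5 to 39.4 in tumor and 24.1 to 46.4 in neonatal libraries.

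Gramd4, Scai, Rph3al and Ntmt1 also rose, by log2 1.58 ± 0.24, 2.06 ± 0.38, 1.91 ± 0.35 and 1.67 ± 0.34, the last not passing without the first (adjusted p = 0.0570) or the second tumor library (0.0659). H2-Q4, a class I antigen gene with near-identical relatives that makes its value uncertain, was at 7.63, 7.55 and 10.2 in tumor libraries and 1.81, 2.15 and 1.80 in neonatal libraries (log2 1.69 ± 0.29, adjusted p = 0.0024). It was the only member that passed of 18 tested class I presentation genes. Susd2 and Cacna1c, a pore subunit of L-type calcium channels, were picked after their values were seen, for low adjusted p. Susd2 was at 10.6, 13.3 and 5.52 in tumor libraries and 0.497, 0.638 and 1.68 in neonatal libraries (adjusted p = 4.67e-05). Cacna1c was at 5.31, 8.25 and 7.61 in tumor libraries and 0.753, 0.479 and 0.461 in neonatal libraries (adjusted p = 1.67e-04).

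Slc2a1, which encodes the glucose transporter GLUT1, fell in tumor CD45- cells. It was at 0.127, 0.0899 and 0.156 in tumor CD45- libraries and 14.7, 19.6 and 5.43 in neonatal CD45- libraries, a log2 fold change of -3.51 ± 0.36 (SE, adjusted p = 1.11e-05). Anemia CD45- libraries were as low as tumor ones, at 0.145, 0.374 and 0.0458. The CD45+ cells of tumor-bearing mice did not share the low level: they were at 10.4, 20.8 and 11.3, and neonatal CD45+ cells at 11.1, 7.22 and 6.12. The difference between the 2 contrasts, CD45- minus CD45+, was -4.21 ± 0.51 (adjusted p = 2.31e-04). The part of other cell types in this difference was not tested. Of 24 tested glycolysis and hypoxia genes, 2 fell (Slc2a1 and Epas1), beside 2.13% of all tested genes, and 22 did not pass. Their median log2 fold change was -0.23.

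Chd7, a chromatin remodeller chosen after its values were seen, followed the pattern of Slc2a1. It was at 0.468, 0.299 and 0.245 in tumor CD45- libraries and 12.1, 10.4 and 5.37 in neonatal CD45- libraries (log2 -2.88 ± 0.24, adjusted p = 1.68e-06). In CD45+ cells it was at 38.7, 32.3 and 34.5 in tumor and 31.9, 27.1 and 31.3 in neonatal libraries, and the difference of contrasts was -3.10 ± 0.34 (adjusted p = 1.42e-04).

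Several further genes that fell were higher in neonatal CD45- than in neonatal CD45+ cells, and were likewise picked after their values were seen. Slc30a10, a manganese exporter, was at 1.22, 1.30 and 1.66 in tumor libraries and 12.0, 7.503 and 19.8 in neonatal libraries (log2 -2.47 ± 0.26, adjusted p = 1.52e-05). Chchd7, which encodes a mitochondrial protein, was at 11.2, 9.15 and 11.2 in tumor libraries and 40.1, 36.4 and 35.9 in neonatal libraries (log2 -1.75 ± 0.22, adjusted p = 1.24e-04). Both were much lower in neonatal CD45+ cells, where Slc30a10 ranged from 0.333 to 0.917 and Chchd7 from 11.5 to 15.3. Runx1t1, the corepressor ETO, was at 2.13, 1.25 and 0.377 in tumor libraries and 16.6, 13.1 and 27.4 in neonatal libraries (log2 -3.17 ± 0.31, adjusted p = 7.70e-06). Gmpr, the GMP reductase, was at 2.09, 6.96 and 1.64 in tumor libraries and 42.1, 26.8 and 24.3 in neonatal libraries (log2 -2.96 ± 0.55, adjusted p = 0.0044). Of the 239 genes that fell, 60 were at least 2-fold higher in neonatal CD45- than in neonatal CD45+ cells, as were 1199 of all 11195 tested genes. The 239 were called on the same neonatal CD45- values, which favours a higher share, so this count describes them and no more.

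Mt1, also picked after its values were seen, encodes a metallothionein, a metal-binding protein abundant in fetal liver. It was at 13.6, 6.90 and 7.28 in tumor libraries and 54.0, 30.2 and 84.5 in neonatal libraries (log2 -2.42 ± 0.52, adjusted p = 0.0137). Its call was lost without the second tumor library (adjusted p = 0.0853), the third tumor library (0.0583), the first neonatal library (0.0640) or the third neonatal library (0.0663). The Mt1 promoter is shown because metallothionein genes are a textbook case of metal-responsive elements. Capitals mark TGCNCNC, the core of that element with N in place of its purine, on either strand (chr8:94178839-94179138, plus strand, same table and window).
Mt1: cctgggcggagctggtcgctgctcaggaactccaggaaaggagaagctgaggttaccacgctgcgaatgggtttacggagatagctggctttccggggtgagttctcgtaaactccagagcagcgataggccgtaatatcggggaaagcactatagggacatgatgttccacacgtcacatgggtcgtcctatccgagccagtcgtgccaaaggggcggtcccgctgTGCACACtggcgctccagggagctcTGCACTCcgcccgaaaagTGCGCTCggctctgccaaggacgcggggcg
The window held 3 matches. At least as many were found in 8.04% of all genes, and at least 1 in 53.6%.

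Some imprinted genes of fetal growth fell. Of 8 tested imprinted growth genes, 5 fell (Igf2, Mest, Dcn, Peg10 and Grb10), beside 2.13% of all tested genes, and 3 did not pass. Another 8 in the table were not tested. The 5 that fell passed the filter only through neonatal libraries, so the count describes them and no more. Igf2, the fetal insulin-like growth factor, was at 0.0148, 0.0157 and 0 in tumor libraries and 10.6, 5.33 and 21.2 in neonatal libraries (log2 -3.54 ± 0.39, adjusted p = 2.44e-05). Mest was at 0.0259, 0.0551 and 0.00790 in tumor libraries and 3.68, 4.38 and 5.67 in neonatal libraries (adjusted p = 1.15e-07). Neonatal values stood far above the tumor values in each of the 3 libraries. Dcn, a proteoglycan of connective tissue, and Peg10 were low even in neonates, at 1.24 to 1.87 and 0.695 to 1.598, against at most 0.0372 and 0.0780 in tumor libraries. Grb10, an adaptor that restrains insulin-type receptors, was at 0.0482, 0.262 and 0.273 in tumor libraries and 1.48, 1.73 and 5.53 in neonatal libraries (adjusted p = 0.0116, and 0.0580 without the first tumor library). The list count was 3 without the first neonatal library and 3 without the third.

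Of 17 tested genes of globin switching and the LIN28 axis, 2 fell, beside 2.13% of all tested genes, and 15 did not pass. Both that fell passed the filter only through neonatal libraries, so the count describes them and no more. Lin28b, which blocks maturation of let-7 microRNAs in fetal cells, was listed at 0 in all tumor libraries and at 0.673, 1.30 and 1.18 in neonatal libraries (adjusted p = 0.00228). Igf2bp3, an RNA-binding partner of that programme, was also listed at 0 in all tumor libraries and at 1.39, 2.58 and 2.10 in neonatal libraries (adjusted p = 0.00177). Igf2bp3 was higher in the CD45+ cells of neonates, at 17.1, 20.9 and 16.1. The list count was 1 without the second or without the third neonatal library. Bcl11a, the repressor of fetal globin genes in human cells, was at 1.87, 5.23 and 12.0 in tumor libraries and 0.976, 1.67 and 3.36 in neonatal libraries, which overlap (adjusted p = 0.435). Embryonic globins stayed low in both groups: Hbb-y was at 1.67, 1.27 and 0.281 in tumor libraries and 0.942, 0.796 and 0.413 in neonatal libraries (adjusted p = 0.906), and the other 3 did not reach the filter.

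**Figure D3:**
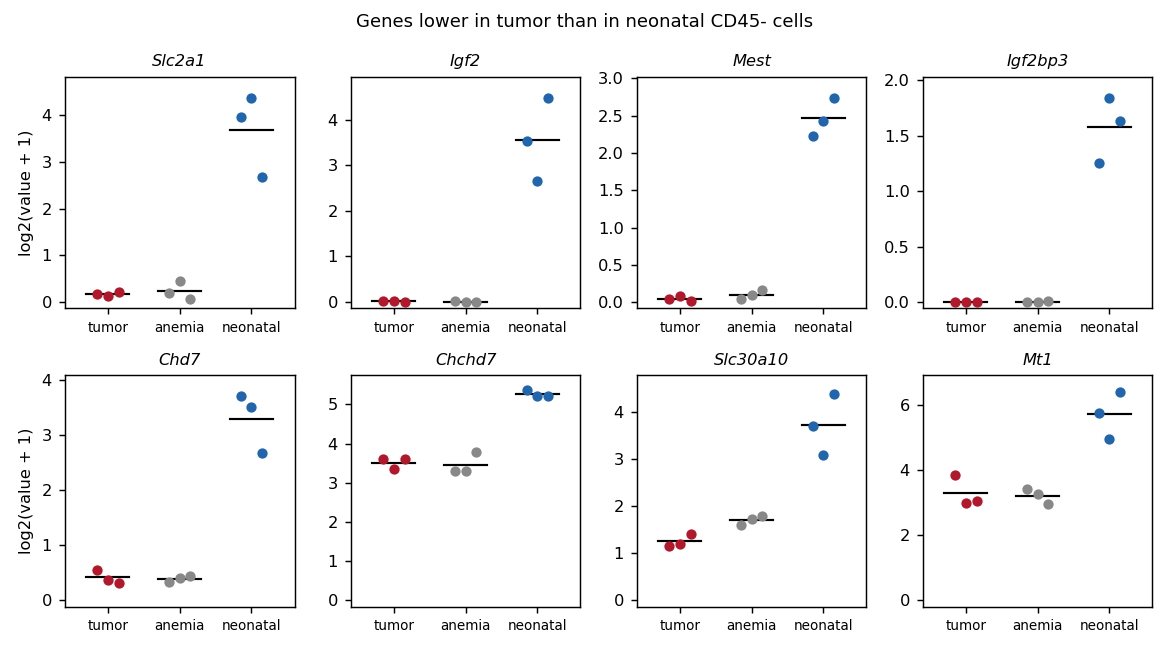
Values per CD45- library as log2(value + 1) for 8 genes that were lower in tumor than in neonatal cells, with tumor, anemia and neonatal libraries from left to right (3 points each, bars are means). Tumor and anemia points lie near each other and below every neonatal point in all 8 panels.

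Liver-type transcripts were among the largest falls. Albumin (Alb) was at 0.720, 0.730 and 0 in tumor libraries and 72.3, 52.3 and 342 in neonatal libraries, a log2 fold change of -6.26 ± 0.58 (adjusted p = 4.60e-06). Afp, the fetal albumin relative, was listed at 0 in all tumor libraries and at 21.0, 15.6 and 80.1 in neonatal libraries (adjusted p = 2.98e-05). The third neonatal library was the highest for both. Ahsg, Apoa1, Apoa2, Apoc1, Serpina1a, Serpina1b, Fabp1, Ttr and Fga, which encode plasma proteins, apolipoproteins and liver metabolic proteins, fell by 3.57 to 5.14 on the log2 scale; Serpina1a and Serpina1b are near-identical copies whose values are uncertain apart. All 18 tested hepatocyte genes fell, beside 2.13% of all tested genes. Of the 18, 17 passed the filter only through neonatal libraries, so the count and p-values describe them and no more. The 19 hepatocyte genes in the table summed to 2.20 to 3.47 in tumor libraries and 163 to 1034 in neonatal libraries, and 2 were listed at 0 in all tumor libraries. In anemia libraries the sum was 0.0389 to 0.265. Fewer cells of a type and less RNA per cell cannot be told apart in sorted bulk samples.

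The promoters of Alb and Afp, neighbours on chromosome 5, are shown as examples of the liver-type genes that fell. Capitals mark GTTAAT, core letters of the site of the liver factor HNF1, on either strand (Alb chr5:90460620-90460919 and Afp chr5:90490464-90490763, plus strand, same table and window).
Alb: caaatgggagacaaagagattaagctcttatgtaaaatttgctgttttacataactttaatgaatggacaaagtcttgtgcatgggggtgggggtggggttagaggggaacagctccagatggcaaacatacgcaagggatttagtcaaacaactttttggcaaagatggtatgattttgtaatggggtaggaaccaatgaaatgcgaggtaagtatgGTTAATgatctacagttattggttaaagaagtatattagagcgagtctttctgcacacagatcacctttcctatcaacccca
Afp: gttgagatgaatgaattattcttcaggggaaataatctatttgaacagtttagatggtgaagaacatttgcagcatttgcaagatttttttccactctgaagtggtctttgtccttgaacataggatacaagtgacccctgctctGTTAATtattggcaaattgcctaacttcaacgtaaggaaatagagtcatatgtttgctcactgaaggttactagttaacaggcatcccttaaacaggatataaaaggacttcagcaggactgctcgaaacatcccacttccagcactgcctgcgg
Each held 1 match. GTTAAT was found in 8 of the 16 hepatocyte genes with a promoter and in 8.24% of all genes; the other 8 only lack these letters in this window. The matches in the 5 windows printed here did not overlap one another.

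Some macrophage genes and most tested vessel and stromal genes were lower as well. Of 22 tested monocyte and macrophage genes, 4 fell (Marco, Clec4f, C1qb and Timd4), beside 2.13% of all tested genes, and 18 did not pass. Clec4f and Timd4 passed the filter only through neonatal libraries. The median log2 fold change of the list was -0.74. Marco, a scavenger receptor, was at 0.288, 0.348 and 0.549 in tumor libraries and 45.2, 41.4 and 46.2 in neonatal libraries (log2 -5.02 ± 0.35, adjusted p = 1.15e-07). Clec4f, a lectin of liver macrophages in rodents, was at 0.0280, 0 and 0 in tumor libraries and 16.8, 10.4 and 3.66 in neonatal libraries (adjusted p = 2.55e-05). C1qb, a complement subunit, was at 3.63, 4.17 and 1.40 in tumor libraries and 32.4, 27.8 and 18.02 in neonatal libraries (adjusted p = 0.0185). Timd4, a receptor for dying cells, was at 0.110, 0.138 and 0.496 in tumor libraries and 2.73, 3.82 and 1.75 in neonatal libraries (adjusted p = 0.0267). The count was 2 without the first and 2 without the second neonatal library. The adjusted p of C1qb was 0.0884 without the third tumor library, 0.0971 without the first neonatal library and 0.0641 without the second, and that of Timd4 was 0.0971, 0.124, 0.0971 and 0.125 without the first tumor, second tumor, first neonatal and second neonatal library. General macrophage markers did not pass: Csf1r was at 1.62, 1.35 and 5.47 in tumor libraries and 15.1, 10.3 and 9.68 in neonatal libraries (adjusted p = 0.146), and Adgre1 at 0.490, 0.365 and 1.97 in tumor libraries and 7.95, 7.57 and 4.60 in neonatal libraries (adjusted p = 0.1002). For both markers every tumor library nonetheless stood below every neonatal library. Libraries did not overlap for 8 of the 22 list members in the lower and 0 in the higher direction, beside 14.8% and 4.08% of all tested genes. An unadjusted p below 0.05 (limma) was reached by 7 members, all lower.

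The 22 macrophage genes summed to 27.3 to 80.6 in tumor CD45- libraries and 140 to 218 in neonatal CD45- libraries, against 396 to 1524 in tumor and 1768 to 2975 in neonatal CD45+ libraries. Cd5l and Vsig4, macrophage genes outside that list and picked after their values were seen, fell as well, Cd5l to 2.36, 2.11 and 2.71 in tumor libraries against 32.5, 28.3 and 26.9 in neonatal libraries (adjusted p = 5.17e-05). Vsig4 was at 0.0483, 0 and 0 in tumor libraries and 11.1, 3.29 and 9.77 in neonatal libraries (adjusted p = 8.95e-06). Of 8 tested endothelial and stromal genes, 7 fell, beside 2.13% of all tested genes, and 11 more in the table were not tested. Of the 8, 6 passed the filter only through neonatal libraries, so the count and p-values describe them and no more. Cdh5, the cadherin of endothelial junctions, was at 0.0173, 0.0188 and 0.0106 in tumor libraries and 6.92, 5.87 and 4.61 in neonatal libraries (adjusted p = 1.79e-07). Sparc, a matrix protein, was at 0.244, 0.160 and 0.0184 in tumor libraries and 9.43, 7.98 and 11.9 in neonatal libraries (adjusted p = 1.15e-07). Kdr and Tie1, receptors of endothelial cells, fell too, by 2.51 and 1.39 on the log2 scale. The 19 genes of the list in the table summed to 1.204 to 1.995 in tumor libraries and 32.3 to 57.7 in neonatal libraries.

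Igf2, Dcn, Grb10, Mt1, Epas1 and Trf also fell, and whether their falls had to do with these marker sums was not tested. Trf, the plasma iron carrier transferrin, was at 1.87, 3.34 and 11.0 in tumor libraries and 32.0, 28.2 and 81.3 in neonatal libraries (log2 -3.02 ± 0.62, adjusted p = 0.0109), the third neonatal library being highest as for Alb. Trf was the only member that passed of 22 tested iron genes, and its adjusted p was 0.0705 without the first tumor library, 0.0643 without the second and 0.0577 without the third neonatal library. Epas1, which encodes the hypoxia factor HIF-2α, was at 0.0261, 0 and 0.0120 in tumor libraries and 2.03, 1.79 and 3.54 in neonatal libraries (adjusted p = 1.11e-05). Epas1, Runx1t1 and Vsig4 passed the filter only through neonatal libraries. The part of the marker cells in these differences was not tested. Of the 239 genes that fell, 121 (50.6%) had a higher mean in neonatal CD45+ than in neonatal CD45- cells, beside 75.4% of all tested genes. The 239 were called on the same neonatal CD45- values, which favours a lower share, so this share describes them and no more.

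**Figure D4:**
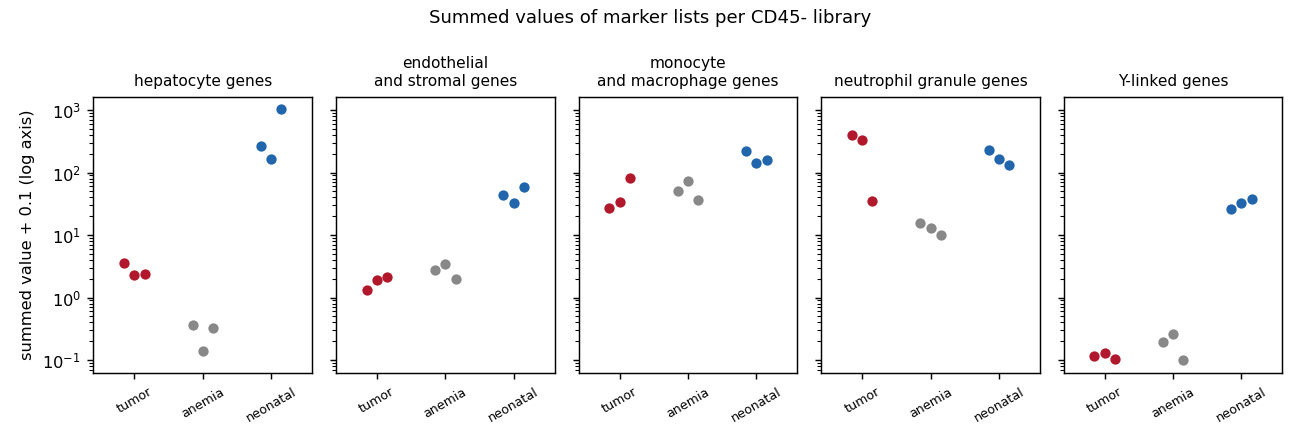
Summed values of 5 marker lists per CD45- library (log y axis, 0.1 added), with tumor, anemia and neonatal libraries from left to right, 3 points each. Neonatal libraries lie above all tumor libraries for hepatocyte, endothelial and stromal, macrophage and Y-linked genes, while neutrophil granule sums of tumor libraries (34.4 to 403) enclose the neonatal ones (131 to 229).

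All 4 Y-linked genes were higher in every neonatal library, and all 4 passed the filter on low values only through neonatal libraries, so their p-values describe them and no more. Eif2s3y, a translation factor subunit, was listed at 0 in all tumor libraries and at 11.9, 14.2 and 19.6 in neonatal libraries (adjusted p = 5.60e-09). Ddx3y, Uty and Kdm5d followed it, with tumor values of at most 0.0248 and neonatal values of 0.744 to 12.1. The 4 genes summed to at most 0.160 in any anemia CD45- library. Y-linked RNA, neonatal age and tumor state go together in these groups, so a difference tied to sex cannot be told apart from the others.

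The core erythroid programme gave no call. Adult globins were at similar levels: Hbb-bs was at 37759, 21956 and 14209 in tumor libraries and 25276, 27281 and 22099 in neonatal libraries, and Hba-a1, whose copy Hba-a2 is near-identical and uncertain, was at 56265, 35002 and 16236 in tumor libraries and 48225, 49147 and 26022 in neonatal libraries. The log2 fold changes of the 4 tested globins lay between -0.33 and 0.07 and changed sign with a library or scaling, and their adjusted p-values were at least 0.998. Adult globins took 33.6 ± 12.7% of summed values in tumor libraries and 34.8 ± 6.33% in neonatal libraries (SD, n = 3 each; exact two-sided permutation p = 1, where the smallest possible is 0.1). The spread within either group was larger than the difference. Tfrc was at 598, 924 and 1495 in tumor libraries and 368, 326 and 1029 in neonatal libraries (log2 0.91 ± 0.47, adjusted p = 0.489). The libraries of the groups overlapped.

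Of 26 tested erythroid transcription factors none passed (limma; 3 at an unadjusted p below 0.05, all higher), with a median log2 fold change of 0.44. Klf1, the factor that activates adult beta globin, was at 65.7, 92.6 and 62.8 in tumor libraries and 29.7, 29.1 and 42.5 in neonatal libraries, and Gata1, the master factor of the lineage, at 68.8, 66.3 and 57.6 in tumor libraries and 41.1, 26.1 and 43.6 in neonatal libraries. The libraries did not overlap for either gene, yet neither passed (log2 1.10 ± 0.38, adjusted p = 0.183 for Klf1; 0.81 ± 0.48, adjusted p = 0.590 for Gata1). Non-overlapping libraries were found for 6 of the 26 factors in the higher and 1 in the lower direction. Over all tested genes the shares were 4.08% and 14.8%. Haem synthesis (15 genes tested, median 0.14), red cell membrane (29, median 0.23), DNA replication (40, median -0.08) and mitosis (34, median 0.06) held no call, with 0, 1, 0 and 0 members at an unadjusted p below 0.05. Cytosolic ribosomal proteins held none either (56 tested, median -0.35, 0 at an unadjusted p below 0.05).

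Of 40 tested interferon-stimulated genes 1 fell, beside 2.13% of all tested genes, and 39 did not pass, with a median log2 fold change of -0.59. An unadjusted p below 0.05 (limma) was reached by 7 members, all in the lower direction. Libraries did not overlap for 8 members in the lower and 1 in the higher direction, beside 14.8% and 4.08% of all tested genes. The member that fell, Bst2, a tetherin that holds virus particles to the cell, was at 0.639, 0.828 and 2.53 in tumor libraries and 4.61, 4.66 and 4.64 in neonatal libraries (adjusted p = 0.0407). The adjusted p of Bst2 was 0.175 without the first tumor library, 0.211 without the second, 0.132 without the first neonatal library, 0.115 without the second and 0.0861 without the third. The third tumor library stood above the others of its group for Bst2, and the count of members that fell was 2 without it and 0 without any other of the 6. In all, 23 lists with 529 tested genes held no call. The lists of sort antigens, embryonic globins and replication-dependent histones also held none and are not in that count. Of the 529 genes, 28 had an unadjusted p below 0.05 (limma), 11 higher and 17 lower, beside 1286 of all 11195 tested genes.

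**Figure D5:**
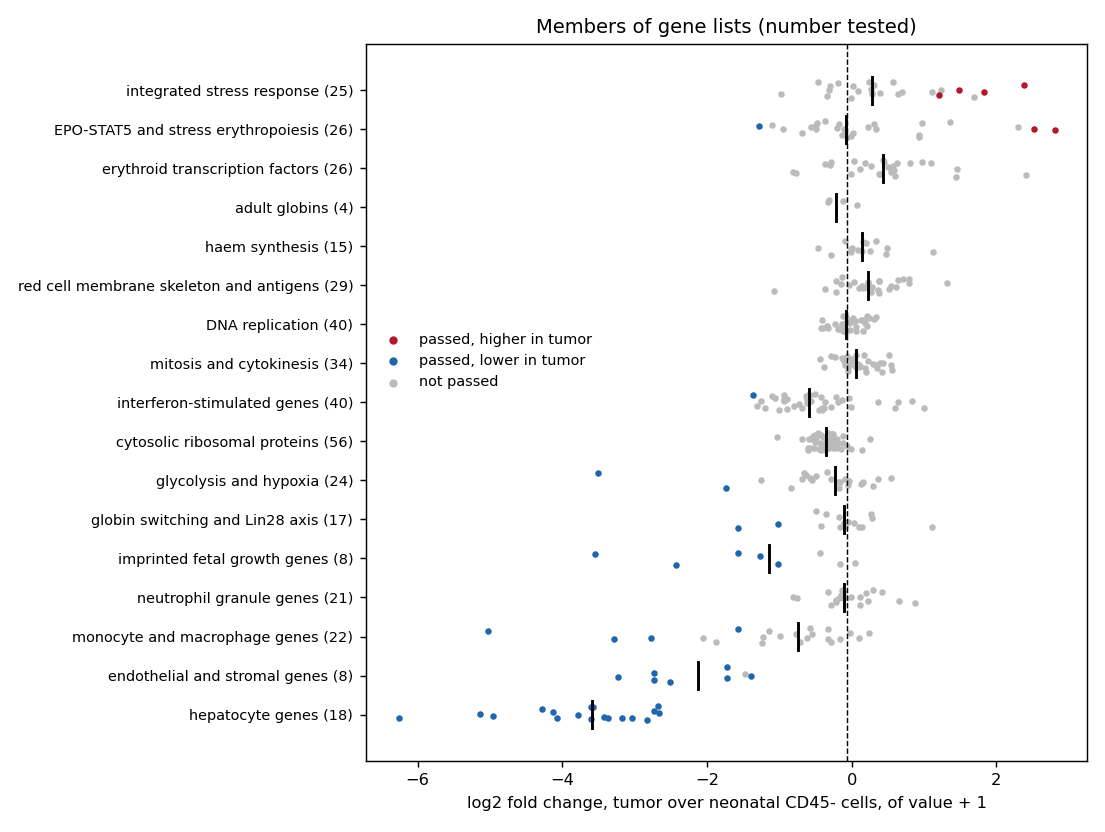
Fitted log2 fold change (x axis, tumor over neonatal CD45- cells, of value + 1) of each tested member of 17 gene lists, with the number tested in brackets; black bars are list medians and the dashed line is the median of all tested genes, -0.07. Coloured points passed the test. Cell cycle and globin lists lie near the line, while the median of erythroid transcription factors (0.44) lies right of it. Hepatocyte, endothelial and imprinted lists lie furthest left. The medians of macrophage (-0.74) and interferon-stimulated genes (-0.59) lie left of the line as well.

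The tumor against neonatal difference was set beside that of the CD45+ cells in the same fit. The 2 differences differed from each other for 121 genes (1.08%), 64 higher (0.572%) and 57 lower (0.509%), and the count was 65 to 95 when any of the 6 libraries was left out, with 77 without the first tumor library, 65 without the second, 78 without the third and 76 without the first neonatal library. These differences are on the log2(value + 1) scale, which compresses values below 1, and several depended on it. The terms of Slc2a1 and Chd7 kept their call in all 16 alternatives, and with a pseudocount of 0.1 they were -6.48 (adjusted p = 1.24e-04) and -4.60 (adjusted p = 5.17e-05). Slc30a10 had a negative term of -1.86 on the main scale, yet its mean was 9.42 times higher in neonatal than in tumor CD45- cells and 7.51 times higher in CD45+ cells, and with a pseudocount of 0.1 the term did not pass (adjusted p = 0.775). Chchd7 did not pass with that pseudocount either (adjusted p = 0.0629). Among genes with a positive term, H2-Q4 and Clec4f passed with a pseudocount of 0.1, whereas Cacna1c, Susd2, Marco, Timd4, Vsig4, Cdh5 and Igf2bp3 did not (adjusted p 0.0799 to 0.999). The ratio of the neonatal to the tumor mean of Cdh5 was 372 in CD45- cells and 193 in CD45+ cells, so that its order on the ratio scale is the opposite of that on the main scale.

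Tumor CD45- cells were also set beside anemia CD45- cells; this comparison uses the tumor libraries of the one above. It gave 17 genes (0.152%), 13 higher (0.116%) and 4 lower (0.0357%) in tumor cells. Among those higher were Ankrd36 (log2 3.47 ± 0.58, adjusted p = 0.0169), Tnfrsf13c (2.81 ± 0.46, adjusted p = 0.0165), Rph3al (2.61 ± 0.35, adjusted p = 0.0121), Ntmt1 (2.08 ± 0.34, adjusted p = 0.0165) and Cacna1c (1.91 ± 0.31, adjusted p = 0.0165). These genes were thus higher in tumor cells than in neonatal and than in anemia cells. The count was 0 in a fit of the 9 CD45- libraries alone (limma; 643 genes at an unadjusted p below 0.05, 854 in the fit of 18), 0 without the second tumor library (594), 4 without the first, 90 without the third, and 29 without the third neonatal library.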

How the data were processed

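RNA was sequenced from sorted spleen cells in 21 libraries. TruSeq libraries were made from total RNA, per the labels' protocols, whose extraction text speaks of retinas while the tissue label says spleen. Bowtie 0.12.2 and the mm8 build are named in the submitters' processing notes. Each value deposited by the authors is the log2 expression of a gene in a library; the quantifier, the scale, the offset and the strandedness are not given in the sources used here, so depth is unknown and overlapping or antisense genes may share reads. The table held 14273 genes and 23668 blank cells (7.90%), taken as 0 after unlogging.

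Values were unlogged, 1 was added and log2 was taken, without scaling. Genes whose value reached 1 in 3 or more of the 18 Ter119+CD71+ libraries (11195) entered limma 3.58.1 (R 4.3.3, statmod 1.5.0, trend and robust options), with a mean per group, and p was adjusted over all of them at 0.05. The procedure was tested on simulated data. Shares were compared with exact permutation tests. The members and the 39 gene lists (870 of 910 genes in the table) were chosen with earlier results of these data known. Lists are described by counts and medians, with no set test. Genes named by rule were the 15 largest rises and falls that passed, with non-overlapping libraries and a higher-group mean reaching 10, symbols of clones and histones left out, up to 4 genes of smallest p per list, and all sort antigens, globins and Y-linked genes; Adgre1, Alas2, Asns, Atf4, Csf1r, Epor, Gata1, Grb10, Jak2, Mt1, Slc4a1 and those marked in the text were named after their values were seen. Promoters came from RefSeq (GRCm38.p6), for 59 of the 70 named genes that were followed through the alternatives. Adgre1, Alas2, Asns, Atf4, Bcl11a, Csf1r, Epor, Hbb-y, Jak2 and Slc4a1, also given with values, were not among the 70. Some genes are not reported here. Alternatives covered the libraries in the fit, pseudocounts of 0.1 and 5, no filter or a minimum of 10, 3 scalings, the moderation, a replicate block and leaving out each library.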

Additional observations from a re-analysis of the deposited data

Results flagged for a closer look

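The genes here had a tumor minus neonatal difference in CD45- cells that differed from that in CD45+ cells by the interaction term in limma, on the log2(value + 1) scale, which compresses values below 1. The interaction was -4.21 for Slc2a1, -3.10 for Chd7, -1.86 for Slc30a10 (adjusted p = 0.0173) and -1.37 for Chchd7 (adjusted p = 0.0427), all genes lower in tumor than in neonatal CD45- cells. It was 1.98 for H2-Q4 (adjusted p = 0.0227), 2.01 for Cacna1c (adjusted p = 0.0318) and 1.83 for Susd2 (adjusted p = 0.0324), all genes higher in tumor than in neonatal CD45- cells. For genes lower in tumor cells of both fractions it was 2.81 for Marco (adjusted p = 0.0065), 3.87 for Clec4f (5.11e-04), 2.23 for Timd4 (0.0432), 2.94 for Vsig4 (0.00115), 2.26 for Cdh5 (2.81e-04) and 1.82 for Igf2bp3 (0.0204). The CD45+ means of Marco were 2.06 in tumor and 697 in neonatal libraries, those of Clec4f 0 and 149, and those of Cdh5 0.188 and 36.5. With a pseudocount of 0.1, Slc2a1, Chd7, H2-Q4 and Clec4f passed and the other 9 did not; that of Igf2bp3 was then 0.076 (adjusted p = 0.999), and the cause was not tested. The calls of H2-Q4, Cacna1c, Susd2, Timd4, Igf2bp3, Slc30a10 and Chchd7 were also lost in at least 1 analysis with a library left out.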

How the results depend on the processing

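Of 61 genes named with values that passed, 43 kept their call in every alternative, 4 lost it only when a library was left out and 14 lost it in another alternative; none changed sign. The count of 284 was 707 with a pseudocount of 0.1 and 145 with 5, 581 without a filter, 96 with a minimum of 10, 470 with median-ratio size factors, and 155 to 288 with a library left out. Higher genes (45) were 21 in the 9 CD45- libraries, 69 with a pseudocount of 0.1, 70 without a filter, 20 with a minimum of 10, 100 with median-ratio factors, 101 with quantile normalization, and 14 to 102 with a library left out. Lower genes (239) were 638, 114, 511, 76 and 370 under pseudocounts of 0.1 and 5, no filter, a minimum of 10 and median-ratio factors, and 141 to 221 with a library left out. Listed genes that passed (53) were 24 with a minimum of 10, which leaves 6194 genes tested. Leaving out replicate 3 of both groups, chosen after seeing the data, gave 226 genes (60 higher, 166 lower).

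The interaction count (121) was 233 without a filter, 37 with a minimum of 10, 65 to 95 with a library left out, and 64 without both replicates 3. Its higher genes were 25, 119, 139 and 20 under pseudocounts of 0.1 and 5, no filter and a minimum of 10. Its lower genes were 94 without a filter, 17 with a minimum of 10, 114 with median-ratio factors, 21 to 45 with a library left out and 16 without both replicates 3. The tumor against anemia count (17) was 0 in the 9 CD45- libraries, 9 with a minimum of 10, 28 with median-ratio factors, 0 to 90 with a library left out and 117 without both replicates 3. Its higher genes were 0, 7, 0 to 46 and 61 in the 9 libraries, with a minimum of 10, with a library left out and without both replicates 3; its lower genes were 0, 2, 0 to 44 and 56, and 8 with a pseudocount of 0.1 and 9 with median-ratio factors.

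The tumor minus neonatal difference in the share of summed values, adult globins, was -1.17 points, and it was -7.49 to 5.23 with a library left out. None of the uncalled globins kept its sign: with a library left out, Hba-a1 was -0.73 to 0.17, Hba-a2 -0.74 to 0.14, Hbb-bs -0.49 to 0.22 and Hbb-bt -0.41 to 0.42. Hbb-bs was 0.13 without both replicates 3 and 0.30 with quantile normalization, and Hbb-bt was -0.06 without both replicates 3 and -0.039 with quantile normalization. With the replicate block 355 genes passed (62 higher, 293 lower), and Trib3 passed too (adjusted p = 0.00547). Deviations of log2 values from the group means correlated at 0.155, 0.0319 and 0.187 between same-numbered tumor and neonatal libraries. Between libraries of other numbers the correlations were -0.188 to 0.0960. Of the 6 libraries, 5 matched best with their own number. The main fit has no replicate term, and whether the numbers pair the libraries was not tested. The causes were not tested. Depth is unknown, and 3 libraries a group limit the precision.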
